A study of Mus musculus with 35 samples.

Results

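The stefin A cluster cystatins Stfa1, Stfa2, Stfa2l1, Stfa3, Cstdc4, Cstdc5 and Cstdc6 were followed in mouse skin for 4 weeks after a dose of 25 Gy. They were taken by symbol from the deposited table, where 7 of 36106 genes carried these names. The data are bulk RNA sequencing of 35 pieces of skin. All mice were C57BL/6J (an inbred strain) females, 10 weeks old at the start, and no group carried an added allele or transgene. The sham group (n = 3) had no radiation. The radiated groups were biopsies of left-flank skin that had been irradiated and then shaved, taken at 1, 2, 3 or 4 weeks (n = 4 each). The control groups were control-labelled samples of the same weeks (n = 4 each), and the labels used here do not give the body site of the control skin. The 35 samples came from 19 mice, so a radiated and a control sample with equal week and number are treated as a pair from 1 mouse, and the control samples are then skin of irradiated animals.

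Stefins are small inhibitors that act inside the cell. They block cysteine proteases of the papain family, such as cathepsins B, H, L and S, by filling the active site reversibly. Human stefin A is a constituent of the cornified envelope, the protein shell of the outermost keratinocytes, and mouse stefin A genes, which have multiplied into a cluster, are known from neutrophils and their precursors as well as from skin. Beyond the shared fold, roles of the individual mouse copies, in particular Cstdc4, Cstdc5 and Cstdc6 (cystatin domain containing genes), are less well separated, and the copies are treated here as inhibitors of the same kind.

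All 7 genes lie on chromosome 16 of GRCm38 (GENCODE M21) and have 3 exons each. From left to right the cluster holds Stfa2l1 (36156811 to 36161953, plus strand), Cstdc4 (36184212 to 36188111, plus), Stfa1 (36276951 to 36285373, plus), Cstdc6 (36321665 to 36334332, minus), Cstdc5 (36359382 to 36367748, minus), Stfa2 (36403992 to 36408457, minus) and Stfa3 (36450537 to 36455392, minus). The annotation names Cstdc4 as Gm5483, Cstdc5 as BC100530 and Cstdc6 as BC117090. Csta1, Csta2 and Csta3, further stefin A genes, lie in the same stretch at 36119946 to 36131241, 36221468 to 36257444 and 36210403 to 36217788.

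The sequence before the start sites is shared by genes whose levels behaved differently in the data, and 3 windows are shown for that reason. Stfa3 was high in the same libraries as wound keratins, Stfa2l1 was high in weeks 3 and 4 alone, and Cstdc4 was present in every library. Each line gives the 250 bases before the RefSeq start in GRCm38.p6, 5′ to 3′ on the strand of the gene, with capitals marking the 3 runs of at least 10 letters that occurred in all 6 windows found.
Stfa3: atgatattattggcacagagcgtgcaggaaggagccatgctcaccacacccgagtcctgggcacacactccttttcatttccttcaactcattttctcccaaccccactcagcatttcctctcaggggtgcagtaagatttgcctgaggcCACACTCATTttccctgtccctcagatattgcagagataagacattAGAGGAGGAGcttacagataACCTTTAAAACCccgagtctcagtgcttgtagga
Stfa2l1: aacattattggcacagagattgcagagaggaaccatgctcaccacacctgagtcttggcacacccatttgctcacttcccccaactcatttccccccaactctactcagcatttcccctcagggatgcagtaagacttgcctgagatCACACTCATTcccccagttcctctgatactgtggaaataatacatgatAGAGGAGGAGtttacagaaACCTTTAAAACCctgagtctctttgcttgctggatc
Cstdc4: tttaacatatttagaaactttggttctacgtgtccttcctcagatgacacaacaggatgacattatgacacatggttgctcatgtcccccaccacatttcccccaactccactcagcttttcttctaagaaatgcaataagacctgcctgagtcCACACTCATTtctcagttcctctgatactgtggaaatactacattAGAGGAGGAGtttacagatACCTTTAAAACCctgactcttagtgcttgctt

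These windows are chr16:36455393-36455642 on the minus strand (Stfa3), chr16:36156561-36156810 on the plus strand (Stfa2l1) and chr16:36183962-36184211 on the plus strand (Cstdc4). RefSeq windows were found for 6 of the 7 genes, all but Cstdc6. The runs were chosen after the windows had been read. Among 32851 RefSeq windows of the same length, read on the strand of the gene, CACACTCATT occurred in 19 (0.0578%), AGAGGAGGAG in 148 (0.451%) and ACCTTTAAAACC in 10 (0.0304%). Identity between windows was highest for Stfa2 and Stfa2l1 at 90.8% and lowest for Stfa3 and Cstdc4 at 68.4%. Of 4 motifs searched on both strands, TATAAA (the TATA box) and TGANTCA (AP-1) matched none of the 6 windows, against 12.4% and 6.75% of all windows. TTCNNNGAA (STAT) matched Cstdc4 only, as TTCTAAGAA, 128 to 120 bases before the start, and occurred in 7.02% of all windows. TTGCNNAA (C/EBP) matched Stfa1 and Cstdc5 as TTGCCTAA and occurred in 9.56% of all windows. For Stfa1, Stfa2 and Cstdc5 the RefSeq start lies inside the GENCODE gene, so part of each window overlaps that gene. Both TTGCCTAA matches lie in these overlaps. A match describes letters in a window, and binding was not measured.

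The members were measured at very different levels in skin without radiation. Levels are given as CPM, reads assigned to the gene per 1000000 reads, on library totals of 17362725 to 28487795 scaled by the trimmed mean of M-values. The p-values measure the spread between animals within a group. Cstdc4 was found in all 35 libraries and lay at 4.03 ± 0.451 CPM in sham skin (SD, n = 3). Stfa3 (0.438 ± 0.128 CPM), Cstdc5 (0.522 ± 0.344 CPM), Stfa2 (0.169 ± 0.256 CPM) and Stfa1 (0.102 ± 0.0907 CPM) lay below 1 CPM on average. For Stfa2l1 and Cstdc6 no read was assigned in the 3 sham libraries, where 3 counts would correspond to 0.13 to 0.155 CPM. Per kilobase of transcript, the order in sham skin was Cstdc4 (3.55 CPM per kb), Stfa3 (1.06), Cstdc5 (1.02), Stfa2 (0.359) and Stfa1 (0.181). Stfa3 and Cstdc5 did not differ beyond their spread, nor did Stfa2 and Stfa1.

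In control skin the sum, most of which was Cstdc4, lay near the sham level. The sum of the 7 members was 4.55, 5.73 and 5.51 CPM in sham skin and lay between 2.98 and 10.3 CPM in the 16 control libraries. Group means were 3.79 ± 0.565, 7.08 ± 2.40, 5.42 ± 1.20 and 4.74 ± 0.749 CPM in control weeks 1 to 4 (SD, n = 4 each), against 5.27 ± 0.625 CPM in sham skin. The ranges of sham and control week 1 did not overlap, with week 1 lower, and the ranges of the other weeks overlapped that of sham skin. Against sham skin 1, 2, 2 and 2 of the 7 members passed the filter on low counts, and edgeR called none of them in any week (Benjamini-Hochberg adjusted p under 0.05 over all genes). Without Cstdc4 the sum was 0.503 ± 0.452 CPM in control week 4 (SD, n = 4) against 1.23 ± 0.400 CPM in sham skin (SD, n = 3), a log2 ratio of -1.29, with overlapping ranges. In control weeks 1 to 3 it was 0.778 ± 0.524, 1.97 ± 1.85 and 0.896 ± 0.765 CPM (SD, n = 4 each), so week 2 lay above the sham mean. No member had an unadjusted p under 0.05, beside 4880 of 17893, 3765 of 17855, 5311 of 17907 and 3947 of 17925 genes. DESeq2 called none of the 1, 3, 3 and 3 members to which it gave an adjusted p, beside 17.3%, 10.5%, 18.6% and 9.83% of all genes. In these comparisons 4.92%, 2.44%, 11.4% and 3.65% of all genes tested were called.

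In radiated skin the family was at high levels in some animals in weeks 1 and 2 and in all of them in weeks 3 and 4. In week 1 the sum was 6.02, 284, 138 and 19.7 CPM in radiated replicates 1 to 4, against 2.98 to 4.28 CPM in control skin. Replicates 2 and 3 were high, replicate 4 was intermediate and replicate 1 was just above the control range. In week 2 the sum was 6.59, 5.47, 21.9 and 293 CPM, against 4.46 to 10.3 CPM in control skin. Replicate 4 alone was high, replicate 3 was intermediate, and replicates 1 and 2 lay within the control range. In week 3 the radiated libraries held 57.4, 59.0, 149 and 228 CPM, against 3.89 to 6.51 CPM in control skin. In week 4 they held 225, 295, 101 and 151 CPM, against 4.16 to 5.73 CPM in control skin. All 8 radiated libraries of weeks 3 and 4 were thus at least 57.4 CPM, and none overlapped the controls. In bulk tissue, a change in the number of cells that make a transcript and a change in RNA per cell cannot be told apart.

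**Figure D1:**
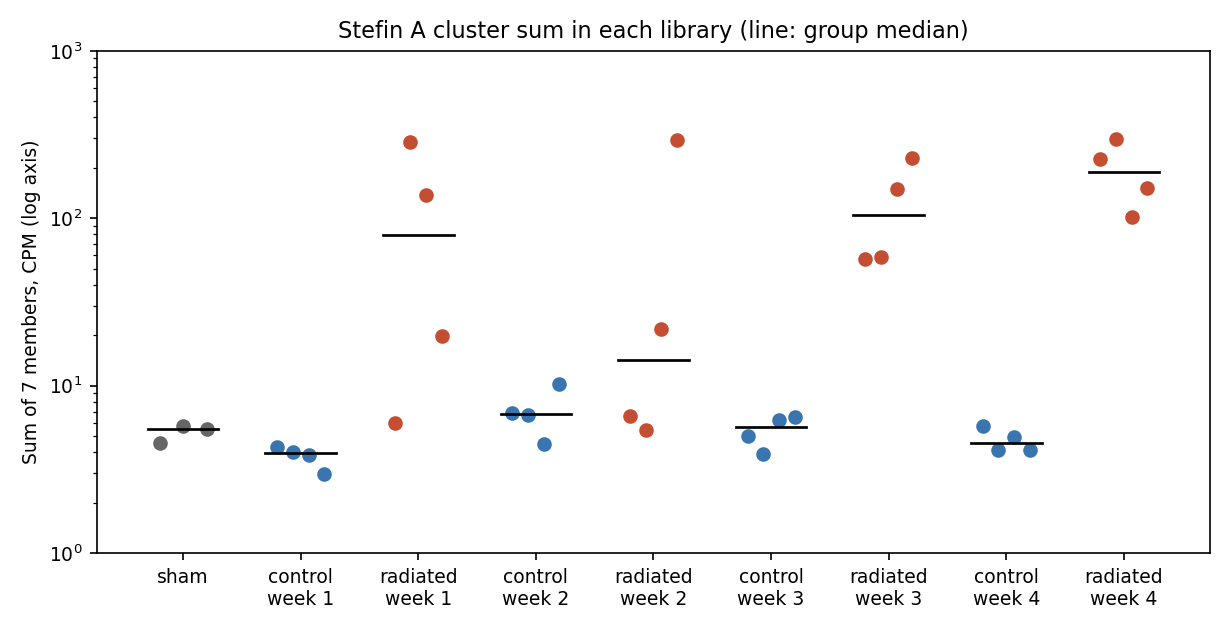
Sum of the 7 stefin A cluster genes in each of the 35 libraries, in CPM on a log axis, by group, with a line at each group median. Radiated weeks 1 and 2 spread from the control level to 284 and 293 CPM, while the 8 radiated libraries of weeks 3 and 4 sit between 57.4 and 295 CPM, above every control and sham library.

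The mean sums in radiated skin were 112 ± 129, 81.7 ± 141, 123 ± 81.7 and 193 ± 85.1 CPM in weeks 1 to 4 (SD, n = 4 each). They were 29.5, 11.5, 22.8 and 40.7 times the control means of the same week and 21.3, 15.5, 23.4 and 36.7 times the sham mean. In week 2 the mean rested on replicate 4: the log2 ratio to control was 3.53 with it, 0.68 without it, 1.07 between group medians and 1.68 as the mean within mouse pairs. In week 1 the mean within pairs was 3.60 on the log2 scale, against 4.88 for the ratio of means. The radiated week 3 and week 4 values are those through which these genes had been picked out, so they are given as a description.

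In edgeR no single member passed after adjustment in weeks 1 and 2, while DESeq2 called some. In week 1, 4 of the 7 members passed the filter on low counts and edgeR called none, with 0% of all 17578 genes called and 2477 of them at an unadjusted p under 0.05. The log2 fold changes were 7.41 for Stfa3 (SE 1.31, adjusted p = 0.171 in edgeR), 7.38 for Cstdc5 (SE 1.40, adjusted p = 0.171 in edgeR), 6.37 for Stfa2 (SE 1.69, adjusted p = 0.205 in edgeR) and 0.83 for Cstdc4 (SE 0.326, adjusted p = 0.298 in edgeR). Control libraries of week 1 held 1 to 5 counts of Stfa3, 3 to 12 of Cstdc5 and 0 to 16 of Stfa2, so these members reached the filter with the help of the radiated libraries where they are high, and the number called is a description. All 4 had an unadjusted p under 0.05, and DESeq2 called 3 of the 5 members to which it gave an adjusted p, Stfa1, Stfa3 and Cstdc5, beside 2.54% of all genes. Leaving out 1 library at a time gave 0 to 4 calls in edgeR, with 4 of 5 tested when radiated replicate 1, the lowest radiated library, was left out, a fit that called 232 genes in all. In week 2 edgeR again tested 4 members and called none, beside 0.00577% of all genes. The adjusted p in edgeR was 0.189 for Cstdc5, 0.215 for Stfa3, 0.284 for Stfa1 and 0.855 for Cstdc4. Of the 4, 3 had an unadjusted p under 0.05, beside 2388 of 17345 genes. In week 2 DESeq2 gave an adjusted p to 2 members, Stfa3 (0.0706) and Cstdc4 (0.896), and called neither, beside 3.96% of all genes. It gave none for Cstdc5 and Stfa1, so it does not bear on them. Against sham skin, 5 and 3 members were tested in weeks 1 and 2 and edgeR called none, beside 1.75% and 5.06% of all genes. At an unadjusted p under 0.05 there were 4 and 2 members, beside 3021 of 18228 and 4261 of 18036 genes. DESeq2 called 4 of 5 and 1 of 2 with an adjusted p, beside 6.44% and 12.5% of all genes. Stfa1, Stfa2, Stfa3 and Cstdc5 had at most 21 counts in a sham library and 35 in a control library of week 2. Those tested reached the filter with the help of the radiated libraries here too, so these numbers called are a description.

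In weeks 3 and 4, 6 of the 7 members passed the filter and all 6 were called higher in edgeR, where 13.6% and 24.2% of all genes tested were called higher. Against sham skin 6 and 7 members were called higher, beside 10.4% and 15.2% of all genes. These contrasts chose the members, so nothing is read from those counts.

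**Figure D2:**
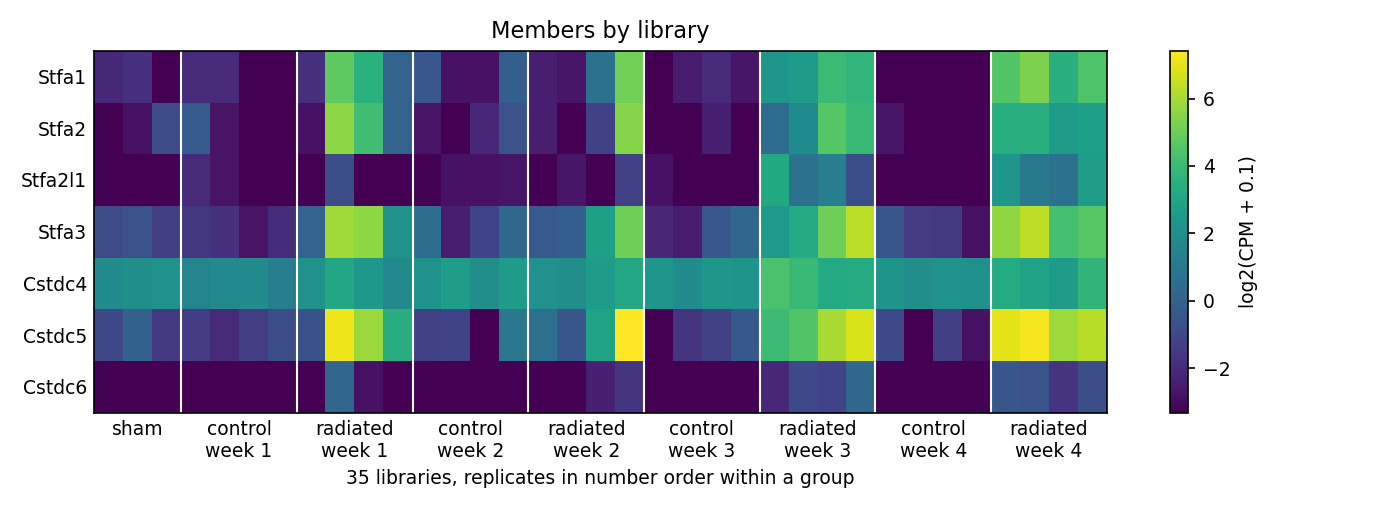
Level of each member in each of the 35 libraries as log2(CPM + 0.1), with libraries grouped by condition and replicates in number order. Stfa1, Stfa2, Stfa3 and Cstdc5 are bright in radiated week 1 replicates 2 and 3, radiated week 2 replicate 4 and all radiated libraries of weeks 3 and 4, whereas Stfa2l1 is raised mainly in weeks 3 and 4 and Cstdc4 is present throughout.

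Cstdc5 had the highest mean level of the members in each radiated week, in CPM and per kilobase alike, although in CPM Cstdc4 exceeded it in 4 of the 16 libraries (week 1 replicate 1, week 2 replicates 1 and 2 and week 3 replicate 1). It was at 0.555, 140, 56.1 and 10.2 CPM in radiated week 1, against 0.143 to 0.505 CPM in control skin. In week 2 it was at 1.46, 0.640, 7.19 and 171 CPM, against 0 to 1.82 CPM. In week 3 it reached 16.4, 22.5, 64.4 and 109 CPM, and in week 4 127, 155, 57.8 and 77.8 CPM, against at most 0.685 and 0.424 CPM in control skin. The groups did not overlap in weeks 1, 3 and 4. In week 1 the lowest radiated value was just above the highest control value of 0.505 CPM. The ratio of means to control was 175 in week 3 and 548 in week 4. Of its 31-base words 35.1% also occur in Stfa1, and 39.0% of those of Stfa1 occur in Cstdc5. Estimated counts were not whole in 15 of 32 libraries with Cstdc5 and 15 of 27 with Stfa1, so the split of reads between them is uncertain. Per kilobase of transcript the order of the mean levels in radiated week 4 was Cstdc5 (204.6 CPM per kb), Stfa3 (105.2), Stfa1 (42.3), Stfa2 (17.9), Stfa2l1 (8.61), Cstdc4 (7.90) and Cstdc6 (1.24), in which Stfa2l1 and Cstdc4 did not differ beyond their spread.

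Stfa3 followed the same libraries. Its radiated values were 0.940, 59.2, 47.6 and 4.41 CPM in week 1 and 0.707, 0.815, 6.82 and 33.0 CPM in week 2, against 0.0478 to 0.233 and 0.0861 to 1.33 CPM in control skin. They were 5.43, 9.28, 32.8 and 78.8 CPM in week 3 and 49.8, 80.4, 18.7 and 24.5 CPM in week 4, against at most 1.08 and 0.636 CPM. Groups did not overlap in weeks 1, 3 and 4, and the ratios of means in the last 2 were 64.7 and 145. Stfa3 is the member whose reads are least open to confusion: all of its 31-base words in the annotated transcript were found in no other transcript, and its estimated counts were whole in every library (within 0.001).

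Stfa1 was at 0.171, 27.1, 11.7 and 0.961 CPM in radiated week 1 and at 0.0884, 0.0582, 1.54 and 35.4 CPM in radiated week 2. It was at 4.97, 6.11, 15.8 and 13.5 CPM in week 3 and at 23.1, 39.2, 11.1 and 22.2 CPM in week 4. Control skin held at most 0.143, 0.834 and 0.139 CPM in weeks 1 to 3 and no read in any of the 4 libraries of week 4. Groups overlapped in week 2 only. In week 1, however, the lowest radiated library held 4 counts and the highest control library 3, a separation at the floor. The week 3 mean was 145 times the control mean, and the week 4 mean was at least 178-fold higher, with 3 counts in each control library taken as the floor.

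Stfa2 differed from Stfa1 in that it did not peak in week 4. It reached 47.6 and 17.5 CPM in radiated week 1 replicates 2 and 3 and 43.8 CPM in week 2 replicate 4. The other 5 radiated libraries of those weeks held at most 0.961 CPM. In week 3 it was at 1.28, 3.64, 24.0 and 14.9 CPM and in week 4 at 10.5, 10.8, 5.78 and 6.65 CPM. The highest Stfa2 values thus fell in single animals of weeks 1 and 2, and the ranges of weeks 3 and 4 overlapped. Control skin had 2 counts in all of week 3 and 1 count in all of week 4, so the ratios of 498 and 773 carry counting intervals of 137 to 4114 and 138 to 30570 (95%, exact). These intervals cover counting error only.

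Stfa2l1 was high in weeks 3 and 4 only. It had 0, 0.483, 0 and 0 CPM in radiated week 1 and 0, 0.0582, 0 and 0.327 CPM in radiated week 2, although Stfa2 was high in 3 of these libraries. In week 3 it was at 9.12, 1.54, 2.32 and 0.506 CPM and in week 4 at 4.69, 1.94, 1.51 and 6.29 CPM. In week 3 it was highest in replicate 1, where Stfa1, Stfa2, Stfa3 and Cstdc5 were lowest. The week 4 mean of 3.61 ± 2.28 CPM was at least 26.9-fold over control skin, which had no read. Control week 3 had 1 count in all, so the ratio of 286 for week 3 carries a counting interval of 51.0 to 11340 (95%, exact). Across the 35 libraries, its Spearman correlation with the other members ran from 0.554 (Stfa3) to 0.740 (Cstdc6), while Stfa1, Stfa2, Stfa3 and Cstdc5 correlated with each other at 0.771 to 0.904. These correlations share libraries and depth and are given as a description.

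The contrast between Stfa2 and Stfa2l1 can be given within each library, where depth drops out. Of the members these are the closest pair in coding sequence, 96.5% identical, and 29.3% of the 31-base words of Stfa2l1 also occur in Stfa2. Transcripts outside the 7 members share 15.2% of the words of Stfa2l1 and 9.98% of those of Stfa2. How many reads of the pair belong to such transcripts was not tested. Stfa2l1 made up 1.00% of the 897 counts of the pair in radiated week 1 replicate 2 (exact binomial 95% interval 0.460 to 1.90%), 0% of 401 in replicate 3 (upper bound 0.916%) and 0.741% of 810 in week 2 replicate 4 (0.272 to 1.60%). In week 3 it made up 87.7% of 228 counts (82.7 to 91.7%), 29.7% of 111 (21.4 to 39.1%), 8.82% of 692 (6.81 to 11.2%) and 3.28% of 335 (1.65 to 5.80%) in replicates 1 to 4. In week 4 the shares were 30.8% of 357, 15.2% of 329, 20.7% of 174 and 48.6% of 290. Week 1 replicate 4 had 0% of only 22 counts (upper bound 15.4%), which does not set it apart from several later libraries. The shares in weeks 3 and 4 lay above those of the 3 earlier libraries with 401 counts or more, and the interval of week 3 replicate 4 overlapped that of week 1 replicate 2. Estimated counts were not whole in 6 of 24 libraries with Stfa2 and 6 of 17 with Stfa2l1, and in the others no fractional split between transcripts was left.

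Cstdc4 was present in every library and made up most of the family outside radiated skin. Its share of the sum was 70.5 to 81.3% in sham skin and 2.44 to 8.69% in radiated week 4. In control weeks 1 to 4 Cstdc4 held 64.1 to 91.4%, 56.85 to 92.3%, 71.9 to 96.4% and 80.6 to 98.1% of the sum. In radiated week 3 it was at 20.1, 15.4, 9.51 and 9.79 CPM, against 3.52 to 5.02 CPM in control skin. In week 4 it was at 9.69, 7.21, 5.86 and 13.1 CPM, against 3.89 to 4.61 CPM. Groups did not overlap in either week, with ratios of 3.03 and 2.12. Week 3 replicate 1 and week 4 replicate 4 held the most Cstdc4 of their weeks, as they did for Stfa2l1. Cstdc4 counts were not whole in 35 of 35 libraries, and 9.72% of its 31-base words also occur in the annotated gene of Csta2. How many of its reads belong to other transcripts was not tested. The log2 ratio of the family sum to control was 4.51 and 5.35 in weeks 3 and 4 with Cstdc4, and 6.93 and 8.52 without it.

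Cstdc6 was among the lowest members, with a mean below that of Stfa2l1 in radiated weeks 2 to 4 and above it in week 1, in CPM and per kilobase alike. It had no read in any sham or control library. It was at 1.07 and 0.0435 CPM in radiated week 1 replicates 2 and 3, at 0.0904 and 0.218 CPM in week 2 replicates 3 and 4, at 0.137 to 1.15 CPM in week 3 and at 0.209 to 0.640 CPM in week 4. The week 3 mean was at least 3.60-fold and the week 4 mean at least 3.59-fold over control skin. Its coding sequence was 95.2% identical to that of Cstdc5, 42.0% of its 31-base words occur in Cstdc5, and its estimated counts were not whole in 11 of the 12 libraries where it was found.

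**Figure D3:**
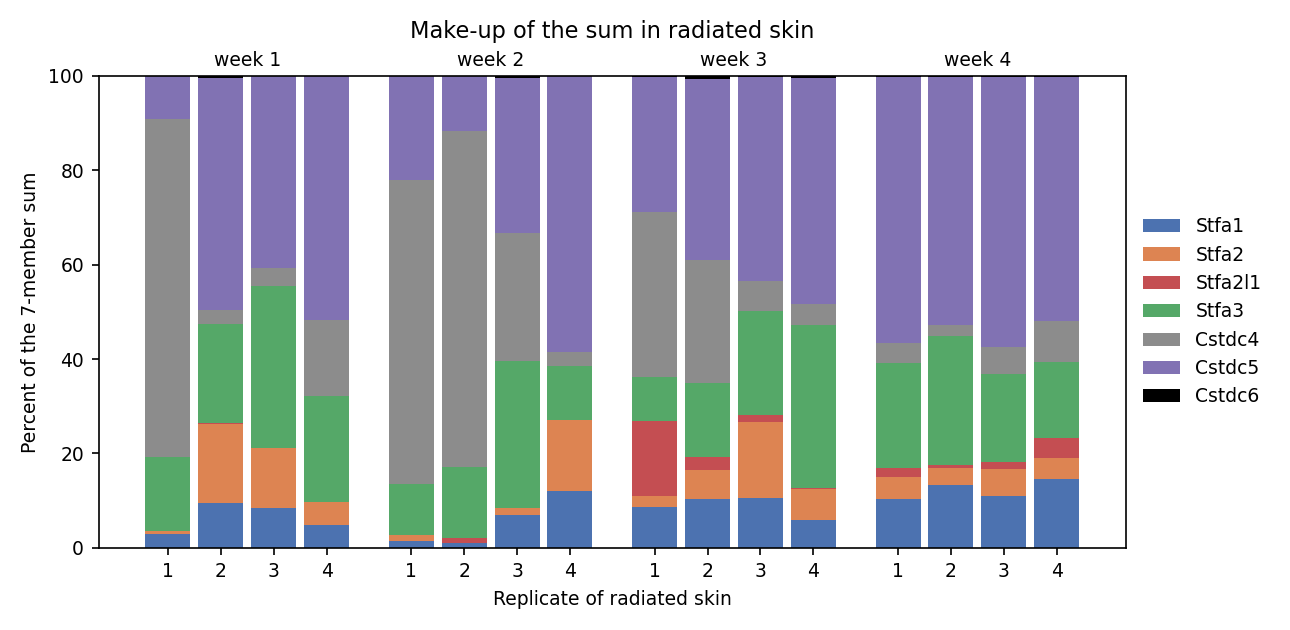
Share of each member in the 7-gene sum, in percent, for the 16 radiated libraries. Cstdc4 dominates week 1 replicate 1 and week 2 replicates 1 and 2, Cstdc5 makes up 51.5 to 57.3% in week 4, and Stfa2l1 is visible in weeks 3 and 4, most of all at 15.9% in week 3 replicate 1.

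In week 4 the share of Cstdc5 varied little among animals, while those of Cstdc4 (2.44 to 8.69%) and Stfa2l1 (0.657 to 4.17%) varied several-fold. There Cstdc5 made up 54.4 ± 2.79%, Stfa3 21.0 ± 4.81%, Stfa1 12.3 ± 2.04%, Cstdc4 5.31 ± 2.64%, Stfa2 4.62 ± 0.852% and Stfa2l1 2.10 ± 1.50% (SD, n = 4). In week 3 Stfa3 ran from 9.46 to 34.6% and Stfa2 from 2.23 to 16.1%.

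The libraries with a high family sum were those with high wound keratins. Krt6a, Krt6b, Krt16 and Krt17 are keratins that epidermal cells make when activated by injury. Their summed level was 359, 14250, 4875 and 970 CPM in radiated week 1 and 762, 782, 1316 and 13720 CPM in radiated week 2. It was 4504 to 14950 CPM in week 3 and 10040 to 13390 CPM in week 4, against 488 to 985 CPM in control skin and 438 to 1981 CPM in sham skin. Animal by animal, Krt6b was at 3.08, 3330, 1099 and 56.8 CPM in week 1 and at 5.53, 2.68, 26.1 and 3024 CPM in week 2, which is the order of Stfa1 in week 1. All 4 wound keratins were called higher in edgeR in weeks 3 and 4, beside 13.6% and 24.2% of all genes, and none in weeks 1 and 2. With the mouse as a block 3 were called in week 3, without Krt17, beside 10% of all genes. In those earlier weeks 4 and 3 of them had an unadjusted p under 0.05, beside 2477 of 17578 and 2388 of 17345 genes. DESeq2 called 2 of 4 in week 1, beside 2.54% of all genes. In week 2 it gave an adjusted p to 1 of the 4 only, which it did not call. The general keratinocyte markers Krt5, Krt14, Krt1, Krt10, Trp63, Dsg3 and Dsc3 summed to 12270 to 22090 CPM in radiated weeks 1 and 2 and 6046 to 24240 CPM in weeks 3 and 4, against 11130 to 22640 CPM in control skin. In radiated week 3 they held 6046, 10190, 13470 and 24240 CPM in replicates 1 to 4, the order of the family sum. In the other radiated weeks their order was not that of the sum. In week 4 alone they were lower in radiated skin without overlap, at 12190 to 16710 against 18440 to 20890 CPM. Of the 7 genes edgeR called 1 higher and 2 lower in week 3, beside 13.6% of all genes in each direction, and 2 higher and 4 lower in week 4, beside 24.2%. In weeks 1 and 2 it called none (1 lower with the block in week 2, beside 0.848%). At an unadjusted p under 0.05 there were 2 and 1, beside 2477 of 17578 and 2388 of 17345 genes. DESeq2 called 2 and 0 of 7, beside 2.54% and 3.96% of all genes. The part of wound keratinocytes in the family's levels was not tested.

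Neutrophil markers were high in the radiated libraries of weeks 3 and 4, and their sum was near the control range in weeks 1 and 2. The summed level of 16 neutrophil genes was 48.1, 54.3, 60.4 and 41.5 CPM in radiated week 1 and 53.6, 34.2, 76.2 and 58.8 CPM in radiated week 2. Control skin held 29.0 to 56.9 CPM and sham skin 38.5 to 64.8 CPM. In the 3 early libraries with 138 CPM or more of the family, Ly6g was at 0.107, 0 and 0 CPM and Retnlg at 0, 0.218 and 0.163 CPM. Other genes of the list were not near 0. Csf3r, the receptor of a neutrophil growth factor, was at 5.10, 9.53 and 8.12 CPM in them, against 1.26 to 7.80 and 0.646 to 2.27 CPM in control weeks 1 and 2. Cxcr2, a chemokine receptor, was at 27.0, 14.9 and 23.0 CPM in them, against 4.16 to 7.99 and 4.82 to 9.28 CPM in those controls. The sum rose to 807, 229, 362 and 118 CPM in week 3 and 358, 243, 226 and 334 CPM in week 4. Of the 16 genes 11 were tested in each of these weeks, with 7 and 9 called higher in edgeR and none lower, where 13.6% and 24.2% of all genes were called higher. In weeks 1 and 2, 7 were tested and none called (1 with the block in week 2, Csf3r, beside 2.85% of all genes). At an unadjusted p under 0.05 there were 1 and 2, beside 2477 of 17578 and 2388 of 17345 genes. DESeq2 called 0 of 6 and 1 of 8 with an adjusted p, beside 2.54% and 3.96% of all genes. Replicate 1 of week 3, with the highest Stfa2l1 and Cstdc4, stood apart with Ly6g at 8.30, Retnlg at 78.8 and Ngp at 56.1 CPM. The other 7 radiated libraries of weeks 3 and 4 held at most 1.03, 10.1 and 1.72 CPM of these. That library also had the least Lor (loricrin, a cornified envelope protein), at 0.775 CPM. The log2 ratio of the week 3 family sum to control was 4.51 with it and 4.75 without it. The part of neutrophils in the levels of Stfa2l1 and Cstdc4 was not tested.

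**Figure D4:**
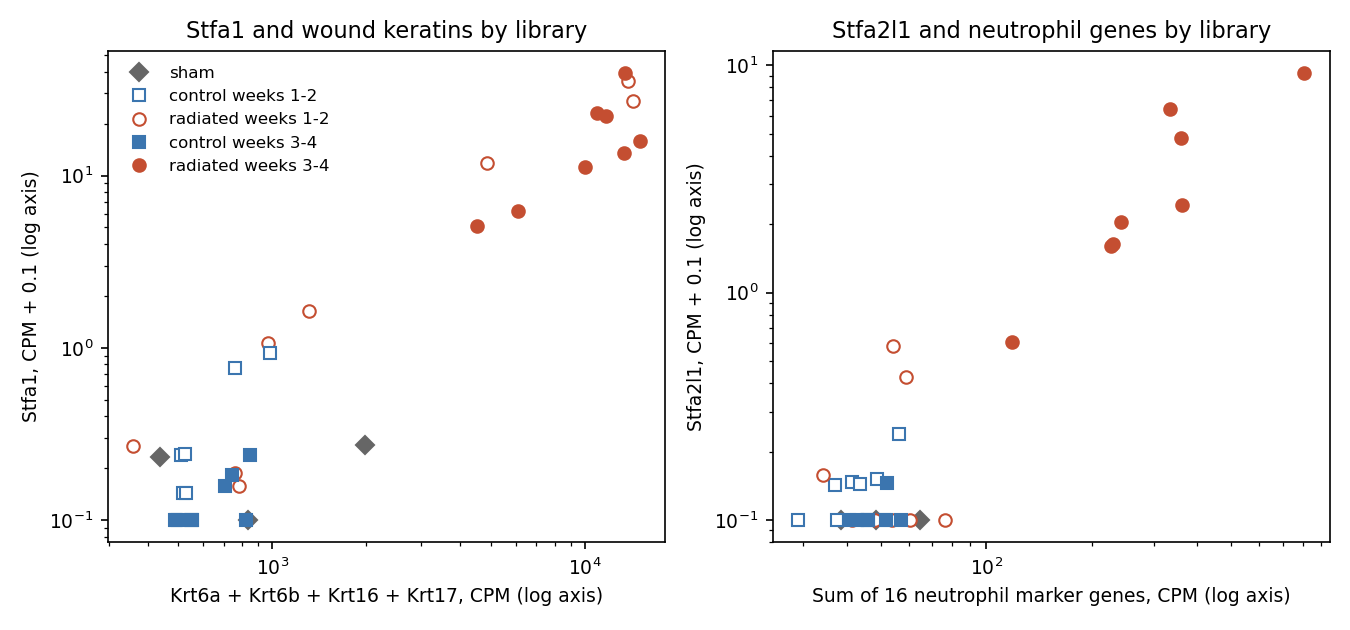
Stfa1 against the summed wound keratins (left) and Stfa2l1 against the summed level of 16 neutrophil genes (right), both in CPM on log axes, with 0.1 added to the member and 1 point per library. High Stfa1 goes with high wound keratins in early and late radiated libraries alike, and the 7 libraries with Stfa2l1 of 1.51 CPM or more are radiated libraries of weeks 3 and 4 with a neutrophil sum of 226 CPM or more.

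S100a8 and S100a9, alarmins of neutrophils and stressed keratinocytes, lay between. Their sum was 0.256, 57.2, 11.0 and 0.917 CPM in radiated week 1 and 0.530, 0.524, 5.29 and 22.3 CPM in week 2, so the libraries rich in the family were the richest in these too. It was 319, 52.2, 58.9 and 31.5 CPM in week 3 and 215, 172, 59.0 and 197 CPM in week 4, against at most 2.05 CPM in control skin. Both genes were called higher in weeks 3 and 4 in edgeR, beside 13.6% and 24.2% of all genes, with log2 fold changes of 6.91 and 6.27 for S100a8 and 7.47 and 7.37 for S100a9. In week 2 S100a9, the only one tested, had an adjusted p of 0.21 in edgeR and 0.0297 with the block. In week 1 neither passed the filter, and DESeq2 called S100a9 (adjusted p = 0.00704), beside 2.54% of all genes. Control libraries held at most 0.765 and 1.36 CPM of the 2 genes together in weeks 1 and 2. These early p-values thus rest on the radiated libraries where S100a9 is high and are a description. The order of animals within weeks 3 and 4 was not that of the family sum.

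Ranking the 12527 genes whose mean was 5 CPM or more by Spearman correlation with the family sum over the 35 libraries put Sprr2a2 (0.879), Gsdmc (0.874), Sprr2h (0.861), Il2ra (0.860), Sprr1b (0.856), Entpd7 (0.852), Enah (0.847) and Krt6b (0.843) at the top. Sprr2a2, Sprr2h and Sprr1b encode small proline-rich proteins, precursors of the cornified envelope, and Krt6b is one of the wound keratins. By Pearson correlation of log2(CPM + 0.1) Krt6b came first (0.977), and 3 of the 8 genes were shared between the rankings. For Stfa2l1 the same ranking was led by Ugcg (0.796), Slc16a1 (0.784) and Gm15280 (0.779), lower values than for the sum. By Pearson correlation it was led by Saa3 (0.951), Cxcl5 (0.949) and Cxcr2 (0.946), a ranking looked at after the values were known that shared 0 of 8 genes with the other. All points share the libraries and the contrast between radiated and other skin. Cstdc4 made up 56.85% or more of the sum in every sham and control library, so ranks of the sum among those libraries mostly follow it. The sum without Cstdc4 was not ranked.

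Of the other stefin A genes of the cluster, Csta3 was read in every radiated library of weeks 3 and 4, and Csta1 and Csta2 did not pass the edgeR test against control skin in any week. Csta3 had no read in control weeks 3 and 4 and was at 0.228, 0.233, 2.13 and 1.75 CPM in radiated week 3 and 2.05, 2.79, 0.963 and 2.94 CPM in radiated week 4. It passed the filter in week 4 only, through the radiated libraries, so its values are given with no test. It was also at 1.56 CPM in radiated week 1 replicate 2 and 1.58 CPM in radiated week 2 replicate 4, the libraries with the most of the family in those weeks. Csta1 was abundant in all skin, at 15.9 ± 1.90 CPM in sham skin (SD, n = 3). It was at 39.8 ± 13.6 CPM in radiated week 4, and control skin of that week held 26.9 ± 3.39 CPM (SD, n = 4 per group). The log2 fold change of 0.58 (SE 0.236) had an adjusted p of 0.0688 in edgeR, 0.0467 with total-count scaling and 0.0452 in DESeq2. Against sham skin Csta1 was higher in week 4 in control skin (0.74 on the log2 scale, adjusted p = 0.036 in edgeR) and in radiated skin (1.37, adjusted p = 0.00876 in edgeR). In the early libraries it was highest where the family was highest, at 68.5 CPM in both radiated week 1 replicate 2 and week 2 replicate 4. Csta2 was at 1.79 ± 0.651 CPM in radiated week 4 and 1.27 ± 0.822 CPM in its control (SD, n = 4 per group, adjusted p = 0.391 in edgeR). Adding these 3 genes to the sum lowered its log2 ratio to 2.59 in week 3 and 2.85 in week 4.

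Among 18 other cystatins, 5, 5, 5 and 6 were tested against control in weeks 1 to 4, with 0, 0, 1 and 3 called higher, beside 0%, 0.00577%, 13.6% and 24.2% of all genes, and 1 called lower, in week 4, beside 24.2%. The week 3 share, 1 of 5, is near that of all genes. In weeks 1 and 2, 1 and 2 had an unadjusted p under 0.05, beside 2477 of 17578 and 2388 of 17345 genes. DESeq2 called 1 of 4 and 2 of 6 with an adjusted p, beside 2.54% and 3.96% of all genes. Cstb (stefin B), the widely expressed relative of stefin A, was at 44.3 ± 7.39 CPM against 19.6 ± 2.78 CPM in week 3 (SD, n = 4 per group), higher by 1.21 on the log2 scale (SE 0.176, adjusted p = 0.00218 in edgeR). In week 4 it was at 37.1 ± 3.12 CPM against 15.4 ± 3.42 CPM (1.27, SE 0.153, adjusted p = 0.000115 in edgeR), and in sham skin at 38.3 ± 23.5 CPM. In week 2 its adjusted p in edgeR was 0.173, and 0.0273 with the mouse as a block. Fetub, a secreted cystatin family protein, rose by 5.55 on the log2 scale in week 4 (SE 0.524, adjusted p = 2.73e-05 in edgeR). Cst7 (cystatin F of immune cells) passed narrowly in week 4 (0.68, adjusted p = 0.0467 in edgeR) and did not with the block (0.101). Cst3, the secreted cystatin C, fell by 0.50 on the log2 scale in week 4 (SE 0.13, adjusted p = 0.0103 in edgeR). Cst6, a secreted cystatin of the epidermis, did not pass the test in any week.

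Most of the cysteine proteases listed rose in the same weeks. The list holds cathepsins of the papain family and legumain, which is not of that family. Of 11 cysteine proteases, all tested, edgeR called 0, 0, 8 and 8 higher in weeks 1 to 4 and none lower, where 0%, 0.00577%, 13.6% and 24.2% of all genes were called higher. Their median log2 fold changes were 0.19, 0.85, 1.32 and 1.93, against 0.0461, -0.0025, 0.0804 and 0.0175 over all genes tested. In weeks 1 and 2, 1 and 6 of the 11 had an unadjusted p under 0.05, beside 2477 of 17578 and 2388 of 17345 genes. DESeq2 called 0 and 6, beside 2.54% and 3.96% of all genes. With the mouse as a block 5 of the 11 were called higher in week 2, namely Ctsb, Ctsk, Ctss, Ctsz and Lgmn, beside 2.85% of all genes. Ctsk (cathepsin K, a collagen-degrading protease) reached 295 ± 135 CPM in radiated week 4, and its control held 21.3 ± 3.84 CPM (SD, n = 4 per group), a rise of 3.80 on the log2 scale (SE 0.315, adjusted p = 1.35e-05 in edgeR). Lgmn (legumain, the lysosomal asparaginyl endopeptidase) stood at 3.25 (SE 0.184) and Ctss, the cathepsin of antigen-presenting cells, at 3.22 (SE 0.125) in week 4. The abundant Ctsb and Ctsl stood at 1.93 (SE 0.142) and 1.84 (SE 0.118). Ctsf, Ctso and Ctsw did not pass in weeks 3 and 4.

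**Figure D5:**
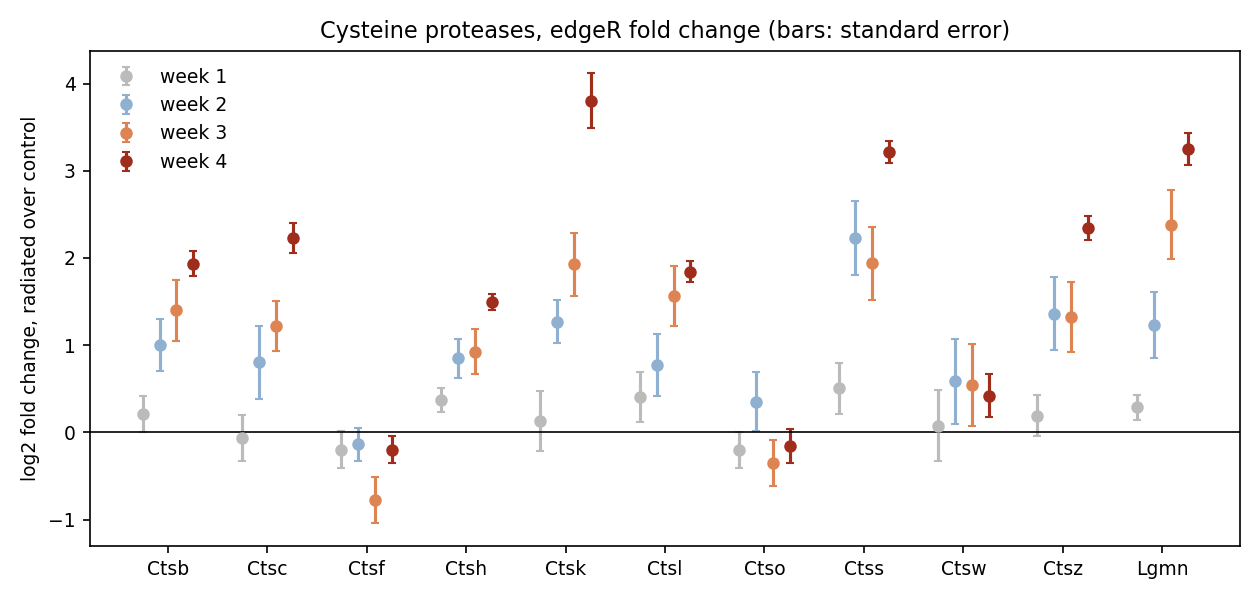
log2 fold change of radiated over control skin for 11 cysteine proteases in weeks 1 to 4, from edgeR, with bars of 1 standard error. In week 4, 8 genes lie between 1.49 and the 3.80 of Ctsk while Ctsf, Ctso and Ctsw stay near 0.

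In the early weeks the order of animals for the proteases was not that of the family. Their summed level in radiated week 1 was 1527, 1506, 1309 and 1195 CPM, about equal in replicates 1 and 2, where the family was lowest and highest. In week 2 it was 2372, 1027, 1186 and 2119 CPM, highest in replicate 1, where the family was at the control level, followed by replicate 4, where it was highest. Control skin of those weeks held 789 to 1462 CPM. The summed markers of macrophages and monocytes, 8 genes, were also highest in replicate 1 of both weeks, with 904, 329, 520 and 536 CPM in radiated week 1 and 1737, 384, 481 and 676 CPM in radiated week 2. Of these 8, edgeR called 0, 0, 6 and 8 higher in weeks 1 to 4, beside 0%, 0.00577%, 13.6% and 24.2% of all genes, and 7 in week 2 with the block, beside 2.85%. In weeks 1 and 2, 2 and 8 of them had an unadjusted p under 0.05, beside 2477 of 17578 and 2388 of 17345 genes. DESeq2 called 0 of 8 and 3 of 6 with an adjusted p, beside 2.54% and 3.96% of all genes. In the later weeks their sums were 794 to 1950 CPM in radiated weeks 3 and 4 against 198 to 852 CPM in control skin. Their part in the protease levels was not tested.

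The cornified envelope genes, the setting in which stefin A is known from the epidermis, went both ways in weeks 3 and 4. In the early radiated weeks their sum was high where the family was high, at 7063, 17420, 18800 and 8860 CPM in radiated week 1 and 5095, 7110, 11820 and 14480 CPM in week 2, against 7391 to 10390 and 5959 to 10480 CPM in control skin. Sham skin, in contrast, held 7377, 25650 and 29980 CPM of them with a family sum of 4.55, 5.73 and 5.51 CPM. Against control the median log2 fold changes were 1.00 and 0.75, and edgeR called none, beside 0% and 0.00577% of all genes. At an unadjusted p under 0.05 there were 10 and 6 of 16, beside 2477 of 17578 and 2388 of 17345 genes. DESeq2 called 5 of 16 and 1 of 14 with an adjusted p, beside 2.54% and 3.96% of all genes. Of the 16 genes, all tested, edgeR called 4 higher and 3 lower in week 3 and 7 higher and 6 lower in week 4, where 13.6% and 24.2% of all genes were called in each direction. The medians in these later weeks were -0.07 and 0.65. In radiated week 3 their sum was 828, 2314, 8115 and 15460 CPM in replicates 1 to 4, the order of the family sum. In week 4 the order differed. Among the risers of week 4 were Sprr1b (up by 8.66, SE 0.560, adjusted p = 4.01e-06 in edgeR) and Rptn (repetin; 5.79, SE 0.524, adjusted p = 2.16e-05 in edgeR). Flg2 (filaggrin 2) fell by 4.24 (SE 0.799, adjusted p = 0.00177 in edgeR), Lor fell by 2.26 (SE 0.478, adjusted p = 0.00338 in edgeR), and Ivl (involucrin) fell by 1.86 (SE 0.234, adjusted p = 0.000152 in edgeR). When the mouse was added as a block, 1 rather than 4 of the 16 was called higher in week 3 and 4 lower, with 6 higher and 7 lower in week 4. Under the block 10% of all genes were called higher and 11.1% lower in week 3, and 21.4% and 21.3% in week 4.

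Other tissue in the biopsies also differed between the groups. Summed skeletal muscle markers were at 19330, 6657, 7584 and 10160 CPM in radiated week 1 and 16970, 17050, 8358 and 9557 CPM in radiated week 2, against 22110 to 34850 and 24290 to 43160 CPM in control skin. In week 1 the order was the reverse of that of the family sum. In edgeR none of the 5 genes was called in these weeks (4 lower with the block in week 2, beside 0.848% of all genes). At an unadjusted p under 0.05 there were 4 and 5, beside 2477 of 17578 and 2388 of 17345 genes. DESeq2 called 4 in each, beside 2.54% and 3.96% of all genes. The sums were at 2457 to 7320 CPM in radiated week 3 and 879 to 2062 CPM in radiated week 4, against 14370 to 29050 and 1132 to 17340 CPM in control skin, with 4 of 5 genes called lower in edgeR in each week, beside 13.6% and 24.2% of all genes. With the block 1 was called lower in week 4, beside 21.3%. Summed hair follicle keratins ran from 3.84 to 2316 CPM in radiated week 4 against 2.83 to 4.19 CPM in control skin, where edgeR called 5 of 6 genes higher, beside 24.2% of all genes, 3 with the block, beside 21.4%, and DESeq2 gave no adjusted p for any of them. They ran from 796 to 9049 CPM in sham skin. The radiated week 4 library with the most hair follicle keratins, replicate 3, had the least of the family in that week. The part of these tissues in the family's levels was not tested.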

How the data were processed

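Skin RNA was sequenced in 35 samples of 9 groups. Per the submitters' processing notes reads were trimmed with Trim Galore 0.6.7 and quantified with kallisto 0.46.2, with mm10 named as the build. The values deposited by the authors are estimated counts for each gene, in which kallisto splits reads that fit several transcripts. The transcript release is not given in the sources used here. The estimated counts were rounded to whole numbers. Library totals ran from 17362725 to 28487795. Levels are CPM with TMM factors from all libraries. A floor of 3 counts stood for groups with no read, and intervals cover counting error only.

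Each comparison was fitted on its own samples over the whole table with edgeR 4.0.16 (glmQLFit and glmQLFTest, filterByExpr, TMM, R 4.3.3), adjusted p under 0.05, and the script was tested on simulated data. Alternatives were DESeq2 1.42.0, total-count scaling, no filter, 1 fit of all 35 samples, the mouse as a block and leaving out each replicate. The family sum was also taken without Cstdc4 and with Csta1, Csta2 and Csta3, and the ranking of genes most like Stfa2l1 was also run without radiated week 3 replicate 1, alternatives chosen after seeing the data. The members and all gene lists (other cystatins, cysteine proteases, cornified envelope, cell type markers) were chosen with earlier results of these data known. Genes named were the members, genes of those lists and the 8 genes most like the sum by Spearman correlation among those with a mean of 5 CPM or more. The genes named as most like Stfa2l1 were chosen after their values were seen.

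Samples sharing a week and a number were treated as pairs because 35 samples came from 19 mice. Deviations from the group means correlated within pairs at -0.0205 to 0.198 in week 1, 0.176 to 0.289 in week 2, -0.0643 to 0.290 in week 3 and -0.082 to 0.0531 in week 4 (16406 genes). No 2 libraries held identical values. GENCODE M21 gave positions and shared 31-base words, and RefSeq GRCm38.p6 gave the sequences before start sites.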

Additional observations from a re-analysis of the deposited data

Results flagged for a closer look

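The check took 51 sets of 4 values, each a member or the sum in a radiated or control group. Each set had more than 3 counts in a library. The gap between the most extreme library and the others was compared with the range of the set. In 7 sets it exceeded Dixon's 95% critical share, where independent normal values give about 1 in 20. These sets share libraries and several hold values near 0, so that rate does not apply and the number flagged is a description. Radiated week 2 replicate 4 stood apart for Stfa1 (35.4 CPM, the others 0.0582 to 1.54), Stfa2 (43.8 CPM, the others 0 to 0.316), Cstdc5 (171 CPM, the others 0.640 to 7.19) and the family sum (293 CPM, the others 5.47 to 21.9). Radiated week 1 replicate 2 stood apart for Stfa2l1 (0.483 CPM, the others 0) and Cstdc6 (1.07 CPM, the others 0 to 0.0435). Control week 1 replicate 1 stood apart for Stfa2, with 0.744 CPM against 0 to 0.0475 CPM in the others. Those are 16 counts, and the sham library with the most Stfa2 held 9. The sets of Stfa2l1, Cstdc6 and control Stfa2 entered the check only through the flagged library, so these flags are a description.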

How the results depend on the processing

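Total-count scaling and DESeq2 size factors moved no log2 ratio of the family sum by more than its spread, though for control against sham in week 3 it was 0.04 as reported and -0.13 by total counts. With the replicate block (radiated and control samples of 1 mouse as a pair) 0, 0, 6 and 6 members were called against control, as without it, and the block changed no call of a member. Under the block 0%, 2.85%, 10% and 21.4% of all genes were called higher in weeks 1 to 4. As the mean within pairs the log2 ratio of the sum was 3.60, 1.68, 4.26 and 5.22 in weeks 1 to 4, against 4.88, 3.53, 4.51 and 5.35 for the ratio of means. In week 1 against control the number called was 0 in edgeR, 3 in DESeq2 (420 genes called in all), 2 in 1 fit of all 35 samples (23 genes) and 0 to 4 leaving out each replicate (0 to 232 genes); in week 2 it was 1 in the fit of all 35 (544 genes). Against sham it was 4 in DESeq2 (1218 genes), 3 without a filter (561), 4 in the fit of all 35 (1224) and 0 to 3 with leave-one-out (1 to 543) in week 1, and 1 (2439), 0 (1182), 4 (3257) and 0 to 1 (107 to 1398) in week 2. In week 2 DESeq2 gave no adjusted p for 2 (against control) and 1 (against sham) of the members edgeR tested. Leaving out a library gave 4 to 6 members against sham in week 3 and 6 to 7 against control or sham in week 4. The main fits called 10.4% of all genes higher against sham in week 3. In week 4 they called 24.2% higher against control and 15.2% against sham. Those contrasts chose the members. The week 2 log2 ratio of the sum ran from 0.68 to 3.92 against control and from 1.11 to 4.35 against sham, the low ends without radiated replicate 4. Without Cstdc4 the log2 ratio of the sum was 6.93 and 8.52 against control in weeks 3 and 4, 6.48 and 7.22 for radiated against sham, and -0.46 and -1.29 for control against sham. With Csta1, Csta2 and Csta3 it was 2.59 and 2.85, 2.63 and 3.31, and 0.46 for control against sham in week 4 and -0.12 in week 1. The Pearson ranking shared 3 of 8 genes with the Spearman ranking. Directions turned for Cstdc4 in week 2 against control (-0.13 to 0.308 leaving out each replicate, the low end without radiated replicate 4) and, in control against sham, for Stfa3 in week 3 (-0.0487 by total counts, -0.63 to -0.09 without control replicate 3 or 4 or sham replicate 3) and Cstdc4 (-0.0125 by total counts in week 3, and -0.0222 to 0.157 leaving out each replicate in week 4), none of them called. The cause of these changes was not tested, beyond fewer samples or genes where the alternative leaves them out. Members under 3 counts per library are limited by depth, at 0.114 to 0.175 CPM.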
